A study of Mus musculus with 6 samples.

Results

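The genes described here are the 9 that carry creatine and adenylate phosphotransfer in muscle: the creatine kinases Ckm, Ckmt2 and Ckb, the creatine synthesis enzymes Gatm and Gamt, the creatine transporter Slc6a8, the adenylate kinase Ak1 and the AMP deaminases Ampd1 and Ampd3. They were taken by gene symbol from a table of 24532 genes, and all 9 were found and passed the low count filter, as did 14109 genes in all. The RNA came from gastrocnemius, the large calf muscle, of 12-week-old C57BL/6 mice. Every mouse carried floxed Usp21, the gene of a deubiquitinase. The 3 knockout mice also carried Ckmm-Cre, in which the promoter of Ckm itself drives Cre recombinase, and the 3 control mice carried the floxed alleles without Cre. The effect of Cre itself therefore cannot be told apart from that of Usp21 loss, and cells of the muscle in which this promoter is silent would keep the gene. The study compared the muscle transcriptome with and without Usp21, and log2 fold changes are given as knockout minus control. The labels call the controls' genotype Litter and do not say which animals were littermates. Each p-value sets a group difference against the variation among libraries, taken as independent, and covers these samples only.

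Creatine kinase passes phosphate between ATP and creatine, and phosphocreatine refills ATP when a fibre contracts. The mitochondrial isoform charges creatine where ATP is made, and the cytosolic isoform uses the charge at the myofibrils and the calcium pumps. Adenylate kinase makes ATP and AMP from ADP, and AMP deaminase removes the AMP by turning it into IMP, the first step of the purine nucleotide cycle. Muscle imports most of its creatine, which is built from arginine and glycine mainly in kidney, pancreas and liver.

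Total counts per library ran from 48658436 to 67332846. Usp21 averaged 19.2 ± 0.0762 CPM (counts scaled to the size of the library; SD, n = 3) in controls and 7.91 ± 1.02 CPM (SD, n = 3) in knockouts, with every knockout below every control (log2 fold change -1.28, SE 0.11, edgeR adjusted p = 0.0355). Usp21 no longer passed when any control, or knockout 2, was left out (edgeR adjusted p from 0.0944 to 0.186). Skeletal muscle markers dominated every library, with Acta1, skeletal actin, between 34757 and 43911 CPM and Myh4, the fast myosin heavy chain, between 41516 and 76120 CPM. Control 3 stood apart in most slow fibre genes. Atp2a2, the slow calcium pump, was at 67.2 CPM in control 3 and between 218 and 400.0 CPM in the other libraries, and Mb, myoglobin, was at 874 CPM in control 3 and between 1532 and 3734 CPM in the others. Since the tissue is a mixture, fewer cells of a type and less RNA per cell cannot be told apart.

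None of the 9 genes passed the test between knockout and control muscle (edgeR's quasi-likelihood test, Benjamini-Hochberg adjusted p under 0.05 over all genes). Over all tested genes 8 passed, which is 0.0567%, so a count of 0 among 9 is close to that background. That number ran from 1 to 141 with single libraries removed, the highest without knockout 3, while the count among the 9 genes stayed at 0. At an unadjusted p under 0.05 there was 1 gene, Ckb, which was lower in knockouts, beside 5.07% of all tested genes lower at that level. DESeq2's Wald test, limma-voom and limma on FPKM also called 0 of the 9. The median log2 fold change of the 9 was 0.042, with 5 positive and 4 negative, and that of all tested genes was -0.0037. The plot of levels by library shows the values behind these numbers.

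**Figure D1:**
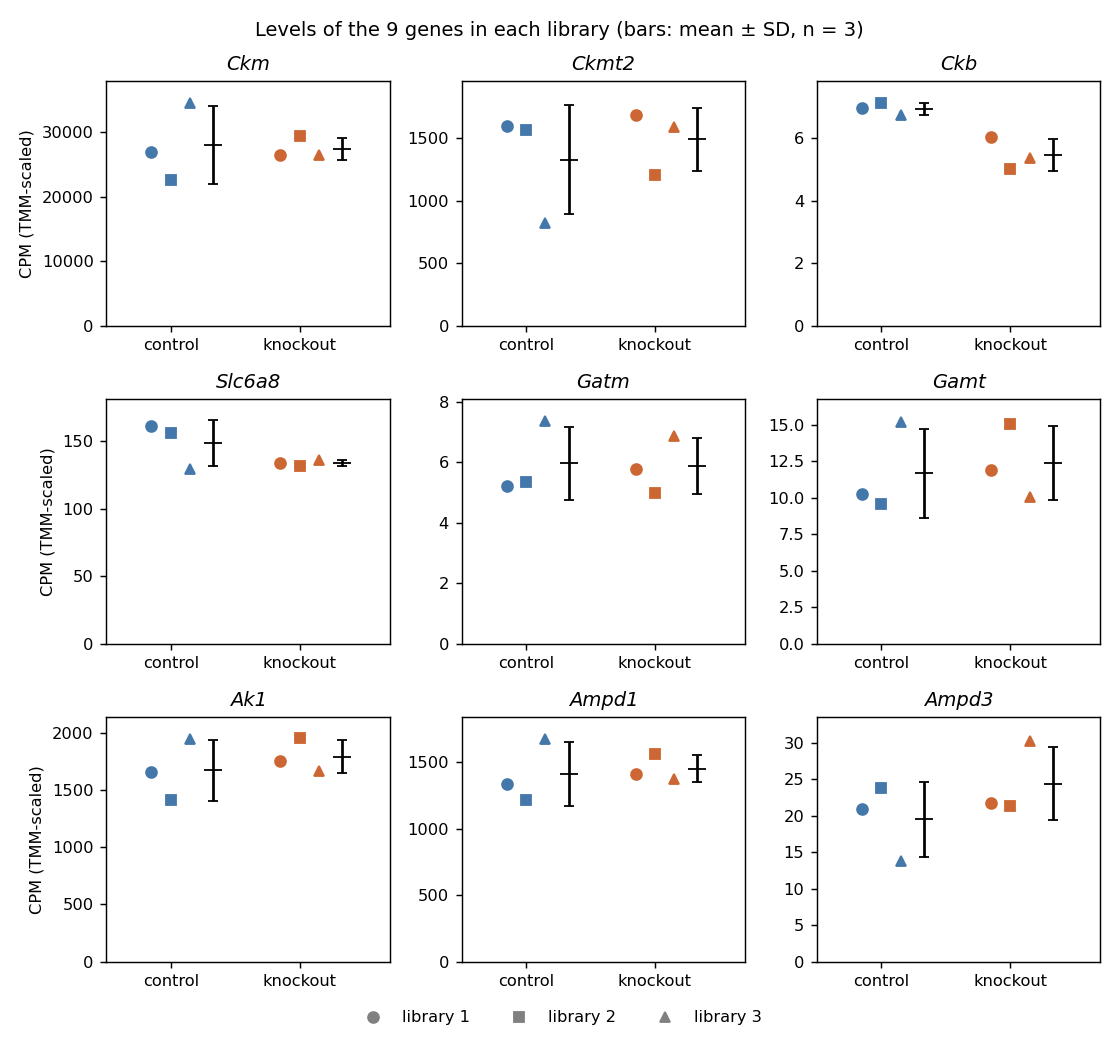
Level of each gene (vertical axes, CPM scaled by TMM factors, each starting at 0) in the 3 control and 3 knockout libraries, with symbols for libraries 1 to 3 and bars for mean ± SD. For Ckb every knockout lies below every control; in the other 8 genes the groups overlap, and control 3 is the highest or lowest library in 7 of the 9 genes.

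Creatine kinase in gastrocnemius was almost all Ckm. The 250 bases before a transcription start of each of the 3 creatine kinase genes are shown because their levels lie far apart in the same tissue and because the muscle gene's promoter drives the Cre of these mice. Sequences are from RefSeq for GRCm38.p6, of which mm10 is another name, 5′ to 3′ on the strand of the gene. The gene record of Ckmt2 begins further upstream than the start used for its window, so the last 38 bases shown lie inside that record. Capitals mark matches to CANNTG, the E-box that myogenic factors can bind.
Ckm, chr7:19410844-19411093, plus strand: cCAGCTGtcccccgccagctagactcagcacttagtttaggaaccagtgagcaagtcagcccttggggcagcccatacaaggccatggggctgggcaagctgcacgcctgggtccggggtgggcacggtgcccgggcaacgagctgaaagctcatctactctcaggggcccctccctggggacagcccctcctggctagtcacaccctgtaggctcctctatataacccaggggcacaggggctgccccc
Ckmt2, chr13:91876886-91877135, minus strand: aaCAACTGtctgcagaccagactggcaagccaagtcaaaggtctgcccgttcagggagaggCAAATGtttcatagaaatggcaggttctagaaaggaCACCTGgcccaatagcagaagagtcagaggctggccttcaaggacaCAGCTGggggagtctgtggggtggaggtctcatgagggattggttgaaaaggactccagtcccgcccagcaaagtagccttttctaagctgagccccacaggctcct
Ckb, chr12:111672339-111672588, minus strand: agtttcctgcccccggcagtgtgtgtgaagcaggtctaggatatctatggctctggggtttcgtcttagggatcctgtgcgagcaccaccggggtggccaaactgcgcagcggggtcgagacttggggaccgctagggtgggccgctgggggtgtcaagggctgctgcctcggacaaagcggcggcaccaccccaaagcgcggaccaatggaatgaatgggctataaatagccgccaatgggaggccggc

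The E-box CANNTG, searched on both strands, matched 1 place in the Ckm window, 4 places in that of Ckmt2 and 0 in that of Ckb. Of 32851 promoters of the same length in the table, 66.2% held at least 1 match and 12.2% held 3 or more. CCAAT, also searched on both strands, matched 2 places each in the Ckmt2 and Ckb windows and 0 in that of Ckm. Of all promoters, 33.8% held at least 1 match and 10.1% held 2 or more. The MEF2 motif was searched as YTAWWWWTAR, where Y is C or T, W is A or T and R is A or G. It matched the Ckb window at 1 place, ctataaatag near the end, and neither of the others, beside 2.92% of all promoters. Whether a MEF2 factor binds these A and T bases was not tested. AAGGTCA, a half-site of estrogen-related receptors, matched none of the 3 windows, beside 4.08% of all promoters. These matches describe letters in short windows: the well-known muscle enhancer of Ckm lies further upstream and is not part of the sequence shown. Promoters were found in the table for 7 of the 9 genes.

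Ckm (Entrez 12715; chromosome 7, 19411094 to 19421583), the cytosolic muscle creatine kinase, stood at 26892, 22601 and 34506 CPM in controls 1 to 3 and at 26457, 29415 and 26402 CPM in knockouts 1 to 3. The control libraries span the range of the knockouts on both sides. Its counts were between 2.41% and 3.39% of each library, and by the authors' FPKM, which divide by gene length, it ranked 3 among all genes in controls. The mean was 28000 ± 6029 CPM in controls against 27425 ± 1724 CPM in knockouts (SD, n = 3 each), a difference smaller than the spread (log2 fold change -0.030, SE 0.18, edgeR adjusted p = 0.965). The 95% interval of the log2 fold change ran from -0.44 to 0.38. Without control 3 the log2 fold change turned to 0.15.

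Ckmt2 (Entrez 76722; chromosome 13, 91853386 to 91876923) encodes the mitochondrial creatine kinase of striated muscle, which sits between the mitochondrial membranes. It stood at 1595, 1565 and 823 CPM in controls and at 1683, 1204 and 1586 CPM in knockouts. Control 3 was lowest and knockout 2 next, so the low libraries fall in both groups. The log2 fold change came to 0.17 (SE 0.26, edgeR adjusted p = 0.841; 95% interval -0.43 to 0.77), and without control 3 it turned to -0.084. In length-scaled FPKM, Ckmt2 equalled 5.65%, 6.59% and 2.27% of Ckm in controls 1 to 3; it equalled 6.06%, 3.90% and 5.72% in knockouts 1 to 3. The low ratio of control 3 came with a high Ckm and a low Ckmt2 in the same library.

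Ckb (Entrez 12709; chromosome 12, 111669355 to 111672338), the cytosolic isoform first known from brain and also made by smooth muscle and nerve tissue, was the member with the smallest p. It stood at 6.98, 7.13 and 6.75 CPM in controls and at 6.03, 5.01 and 5.37 CPM in knockouts, from 253 to 462 counts per library. All 3 knockouts lay below all 3 controls. The groups separate in this direction for 8.87% of all tested genes. Knockout muscle held 78.7% of the control mean, with a log2 fold change of -0.35 (SE 0.12, 95% interval -0.62 to -0.067). The difference did not pass over all genes (edgeR adjusted p = 0.367). The exact two-sided permutation p for log2 CPM was 0.1, and 3 against 3 libraries cannot give a lower one. Leaving out each library in turn gave log2 fold changes between -0.43 and -0.29, all negative.

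Ckb made up 0.0157% to 0.0283% of the summed FPKM of the creatine kinases in the 6 libraries. Smooth muscle and nerve, which can also hold Ckb, were represented by lists of markers, and no marker of either passed the test. The 5 smooth muscle and pericyte markers were all positive, with Rgs5 at 0.0042 and Acta2, smooth muscle actin, at 0.27 on the log2 scale. Of the 4 Schwann cell and nerve markers given here 3 were negative, with Pmp22, a myelin membrane protein, at 0.20 on the log2 scale, and Mbp, myelin basic protein, between 26.4 and 69.2 CPM in controls and between 13.9 and 91.5 CPM in knockouts. Summed CPM ran from 420 to 519 in controls and 446 to 528 in knockouts for the smooth muscle list, and from 77.5 to 167 and 71.8 to 228 for the Schwann list. None of the members of either list had a count of 0 in all libraries.

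The 3 genes whose log2 CPM lay closest to that of Ckb over the 6 libraries, by root mean square difference after centring among 7738 genes, were Ggps1, which makes geranylgeranyl diphosphate (0.040), Tmem115 (0.057) and Zfp275 (0.060). The median gene lay at 0.23. Ckb was chosen for this comparison as the member with the smallest p, so likeness here includes the difference between the groups, and none of the 3 passed the test (edgeR adjusted p between 0.270 and 0.405).

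The other mitochondrial creatine kinase, Ckmt1 (named after its values were seen), was almost not detected. It had 0 CPM in 5 libraries and 0.0454 CPM, the level of 3 counts, in control 3, and a count of 0 in the others allows up to 0.0598 CPM. Intervals and limits of this kind cover counting error only.

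Of the 3 genes of creatine supply the transporter was the most abundant. Slc6a8 (Entrez 102857; chromosome X, 73673133 to 73682502), which carries creatine into the fibre with sodium and chloride, stood at 161, 156 and 129 CPM in controls and at 134, 132 and 136 CPM in knockouts. Controls 1 and 2 lay above every knockout and control 3 lay below every knockout, so the groups overlap through this library. The mean was 149 ± 17.1 CPM in controls against 134 ± 2.12 CPM in knockouts (SD, n = 3 each), with a log2 fold change of -0.15 (SE 0.099, edgeR adjusted p = 0.608). The 95% interval ran from -0.38 to 0.081. The log2 fold change was -0.24 without control 3 and -0.094 without control 1, each a move of more than 1.5 times, and it was negative whichever library was left out. None of these fits passed the test (edgeR adjusted p between 0.399 and 0.887).

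Gatm (Entrez 67092; chromosome 2, 122594473 to 122611277), the amidinotransferase that starts creatine synthesis, was the least abundant of the 9 per length, at 2.55 ± 0.417 FPKM in controls and 2.41 ± 0.454 FPKM in knockouts (SD, n = 3 each). It stood at 5.21, 5.34 and 7.37 CPM in controls and at 5.78, 4.99 and 6.86 CPM in knockouts. One library of each group was high, and the groups overlap. The log2 fold change came to -0.023 (SE 0.19, edgeR adjusted p = 0.977; 95% interval -0.46 to 0.41), and it turned to 0.16 without control 3 and to 0.080 without knockout 2. Markers of kidney, liver and pancreas, the organs named above for creatine synthesis as a whole, were mostly near 0: 4 of the 6 had no count in any library. Alb, the serum protein albumin, reached 8.48 CPM in knockout 2, the library in which Gatm was lowest, and at most 0.560 CPM in the others. Apoa1, an apolipoprotein of liver, was at 1.88 CPM in knockout 2 and at 0 in the others. Gamt, described next, was at 15.1 CPM in knockout 2, its highest value among the knockouts. The part of liver RNA in the values of either enzyme was not tested.

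Gamt (Entrez 14431; chromosome 10, 80258151 to 80261025), the methyltransferase that completes creatine, stood at 10.2, 9.57 and 15.2 CPM in controls and at 11.9, 15.1 and 10.1 CPM in knockouts. Control 3 and knockout 2 were the high libraries. The log2 fold change came to 0.081 (SE 0.21, edgeR adjusted p = 0.917), with a 95% interval from -0.42 to 0.58. The direction was not stable: it was -0.010 without control 1, -0.053 without control 2, -0.087 without knockout 2 and 0.32 without control 3. Of the adipocyte markers, 4 of 5 were also highest in control 3 and knockout 2, with Cfd, adipsin, at 47.8, 29.8 and 125 CPM in controls and at 59.6, 182 and 56.2 CPM in knockouts. Adipoq, adiponectin, followed at 9.49, 5.20 and 21.3 CPM and at 9.95, 28.7 and 7.58 CPM. The summed CPM of the 5 adipocyte markers ran from 42.1 to 181 in controls and from 76.2 to 247 in knockouts, none of them at 0 throughout. Lep, leptin (named after its values were seen), was highest in control 3 but not in knockout 2, with 5.44, 1.51 and 7.87 CPM in the controls, against 1.79, 1.78 and 0.767 CPM in knockouts 1 to 3. The part of adipocyte RNA in the Gamt values was not tested.

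The transporter stood above both enzymes of synthesis per length, with 38.0 ± 5.63 FPKM in controls against 11.8 ± 2.61 FPKM for Gamt (SD, n = 3 each). The order of all 9 by control mean FPKM was Ckm, Ckmt2, Ak1, Ampd1, Slc6a8, Gamt, Ampd3, Ckb and Gatm. The steps from Ckm to Ckmt2 (21.8-fold) and from Ampd1 to Slc6a8 (15.9-fold) divide the genes into 3 tiers. In controls Ckmt2 (536 to 1106 FPKM) and Ak1 (719 to 912 FPKM) overlapped, and so did Ampd3 (3.34 to 6.17 FPKM) and Ckb (4.42 to 5.07 FPKM). These neighbours therefore did not differ beyond their spread in controls. In knockouts Ckmt2 and Ak1 overlapped as well, but Ampd3 and Ckb did not. There Ckb was at 3.56 ± 0.439 FPKM and Ampd3 at 5.87 ± 1.29 FPKM (SD, n = 3 each). The lowest Ampd3 value among the knockouts, 4.93 FPKM in knockout 2, lay above every knockout value of Ckb.

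**Figure D2:**
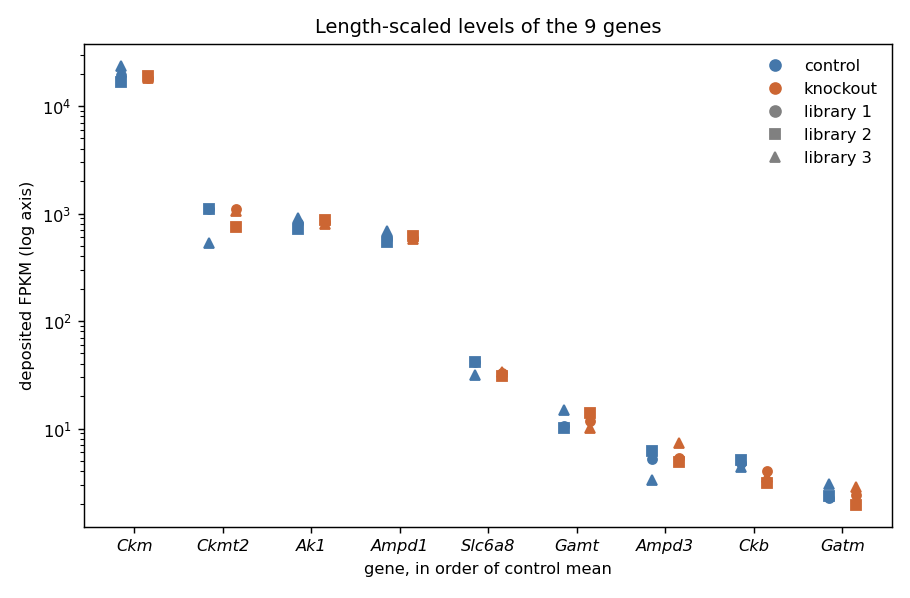
Deposited FPKM of each gene (vertical axis, logarithmic) in the 6 libraries, with genes ordered along the horizontal axis by control mean, blue for control and orange for knockout. Ckm lies between 16778 and 23607 FPKM, Ckmt2, Ak1 and Ampd1 lie between 536 and 1113 FPKM, and the other 5 genes lie at or below 41.3 FPKM.

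Ak1 (Entrez 11636; chromosome 2, 32621758 to 32635058), the main cytosolic adenylate kinase of muscle, stood at 1658, 1414 and 1947 CPM in controls and at 1752, 1951 and 1670 CPM in knockouts. The groups overlap, and control 3 and knockout 2 were again the high libraries. The mean was 1673 ± 267 CPM in controls against 1791 ± 144 CPM in knockouts (SD, n = 3 each), with a log2 fold change of 0.098 (SE 0.13, edgeR adjusted p = 0.818). The 95% interval ran from -0.22 to 0.41, and the log2 fold change was -0.018 without control 2 and 0.22 without control 3. By FPKM, Ak1 made up 91.1% to 93.1% of the adenylate kinases in every library. The next in share, named after their values were seen, were Ak6, at 3.28% to 3.98%, and Ak3, the mitochondrial GTP-using form, at 2.22% to 3.30%.

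Ampd1 (Entrez 229665; chromosome 3, 103073897 to 103099720), the muscle AMP deaminase, stood at 1337, 1216 and 1678 CPM in controls and at 1415, 1565 and 1376 CPM in knockouts. Control 3 was highest and control 2 lowest, so the knockouts lie inside the range of the controls. The log2 fold change came to 0.042 (SE 0.13, edgeR adjusted p = 0.932), with a 95% interval from -0.27 to 0.36. It was -0.0014 without control 1, -0.064 without control 2 and -0.016 without knockout 2, and was 0.19 without control 3. Ampd1 made up 98.4% to 99.1% of AMP deaminase FPKM.

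Ampd3 (Entrez 11717; chromosome 7, 110767790 to 110812409), the deaminase isoform of red blood cells, which muscle also makes, had the largest range of the 9 genes over the libraries, 1.13 in log2 CPM. It stood at 20.8, 23.8 and 13.8 CPM in controls and at 21.7, 21.2 and 30.2 CPM in knockouts. Control 3 was low and knockout 3 high, while the other 4 libraries lay close together. The mean was 19.5 ± 5.17 CPM in controls against 24.4 ± 5.01 CPM in knockouts (SD, n = 3 each), with a log2 fold change of 0.33 (SE 0.22, edgeR adjusted p = 0.619; 95% interval -0.19 to 0.84). The difference was 0.13 without control 3 and 0.14 without knockout 3, so leaving out either library moved it by more than 1.5 times; without control 2 it was 0.49 (also more than 1.5 times).

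Red cell genes are given beside Ampd3, and their part in its values was not tested. The summed CPM of the 6 erythroid genes was 241, 197 and 248 in controls, against 191, 1010.4 and 274 in knockouts, highest in knockout 2. Hbb-bs, an adult beta globin, stood at 128, 103 and 124 CPM in controls and at 101, 559 and 142 CPM in knockouts. In each library 1 of the near-identical alpha globin genes was high and the other low. Hba-a2 ran from 0.0798 to 427 CPM, highest in knockout 2, and Hba-a1 (named after its values were seen) ran from 1.99 to 127 CPM, highest in knockout 3. How reads were split between this pair is uncertain. Trim63, a ubiquitin ligase of muscle atrophy, stood at 258, 363 and 317 CPM in controls and at 675, 877 and 508 CPM in knockouts (log2 fold change 1.13, edgeR adjusted p = 0.204). It was highest in knockout 2 and lowest of the knockouts in knockout 3, where Ampd3 was highest. Fbxo32, another such ligase, was at 0.19, and 6 of the 8 tested genes of the denervation and atrophy list were positive with none past the threshold. In GENCODE M21, Ampd3 overlaps the protein gene Rnf141 and B430319F04Rik on the other strand, and Ckm and Ckmt2 each overlap an antisense RNA gene. On the same strand, Ampd1 overlaps the RNA genes Gm23820 and Gm43063, and Ampd3 overlaps the microRNA gene Gm47282. Whether the counting used strand is not given in the sources used here.

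The genes closest to Ampd3 over the 6 libraries, by the same measure, were Alpk3, a kinase-like protein of muscle (0.092), Tpm2, beta-tropomyosin (0.10), and Pgm5, aciculin (0.10), beside a median of 0.36 over 7737 genes. Each was, like Ampd3, lowest in control 3 and highest in knockout 3. They were picked for likeness to Ampd3 over these same libraries, so that shared order largely follows from the choice. Tpm2, for example, was at 3454 CPM in control 3 and at 6621 CPM in knockout 3. None passed the test (edgeR adjusted p between 0.760 and 0.850). Ampd2, the deaminase of most non-muscle cells, was the least abundant of the 3 by control mean FPKM, and stood at 8.10, 9.29 and 9.70 CPM in controls and at 7.49, 6.94 and 7.25 CPM in knockouts. Like Ckb it was lower in every knockout than in every control without passing (log2 fold change -0.32, SE 0.11, edgeR adjusted p = 0.367). The groups separate in this direction for 8.87% of all tested genes.

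**Figure D3:**
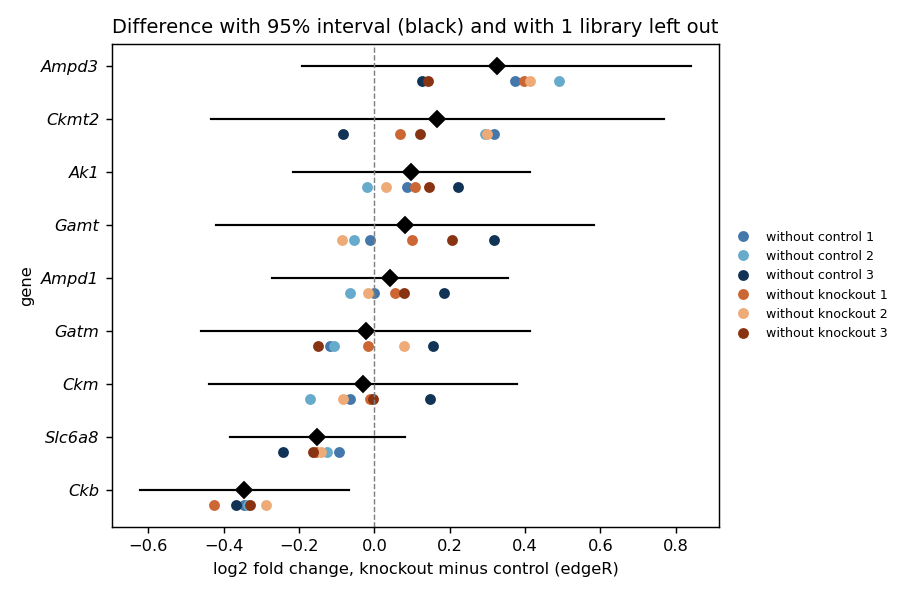
Log2 fold change of each gene (horizontal axis, knockout minus control, edgeR) with its 95% interval in black, and below it the 6 values with 1 library left out. Ckb is the 1 gene whose interval does not reach 0; Ckb and Slc6a8 stay negative and Ampd3 stays positive in all 6 fits, and the other 6 genes have values on both sides of 0.

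Animals of one group often differed more than the groups did. The SD of log2 CPM among controls exceeded the size of the log2 fold change in 8 of the 9 genes, Ckb being the exception, and the SD among knockouts exceeded it in 6. The share of all tested genes for which this holds was not computed, so these counts mark nothing particular to the 9 genes. Control 3 was the highest or the lowest library for 7 of the 9 genes, beside 44% of all tested genes. Control 3 and knockout 2 together were the 2 highest libraries for Ckm, Gamt, Ak1 and Ampd1 and the 2 lowest for Ckmt2 and Slc6a8, which is 6 of 9 genes, beside 20.1% of all tested genes. This pair was chosen after the values were seen, and the counts are given as a description.

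The fibre type lists had the same arrangement. Averaged over 11 slow fibre genes, log2 CPM was 6.99, 6.99 and 3.83 in controls 1 to 3, against 6.56, 6.04 and 7.19 in knockouts 1 to 3, with control 3 and knockout 2 lowest. Summed CPM of the 10 fast fibre genes was 150311, 136636 and 177027 in controls and 160764, 195712 and 158946 in knockouts, with the same 2 libraries highest. Atp2a1, the fast calcium pump, was at 34906, 32499 and 41098 CPM in controls and at 35374, 39776 and 36334 CPM in knockouts. Not every gene of the fast list had this order. Myh1, another fast myosin heavy chain (named after its values were seen), was lowest in control 3 (1952 CPM) and next lowest in knockout 2 (4429 CPM). Myh4 was higher in knockout 1 (54574 CPM) than in control 3 (52314 CPM). In the slow list, Pln (named after its values were seen) was not lowest in control 3. It stood at 2.73, 2.96 and 1.88 CPM in controls and at 1.67, 1.25 and 1.77 CPM in knockouts. Its log2 fold change was -0.69 (edgeR adjusted p = 0.383), and the groups separate in this direction for 8.87% of all tested genes. Ckm, Ak1 and Ampd1, which are abundant in fast glycolytic fibres, stood high where the fast list stood high, and Ckmt2, which is more abundant in oxidative fibres, stood low where the slow list stood low. No slow or fast gene was at 0 throughout, and the part of fibre composition in the values of the 9 genes was not tested. With both libraries left out, an alternative chosen after seeing the data, the log2 fold changes were 0.096 for Ckm, 0.051 for Ckmt2, 0.26 for Gatm, 0.15 for Gamt, 0.16 for Ak1, 0.13 for Ampd1, 0.22 for Ampd3, -0.23 for Slc6a8 and -0.31 for Ckb. None passed (edgeR adjusted p between 0.677 and 0.907).

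**Figure D4:**
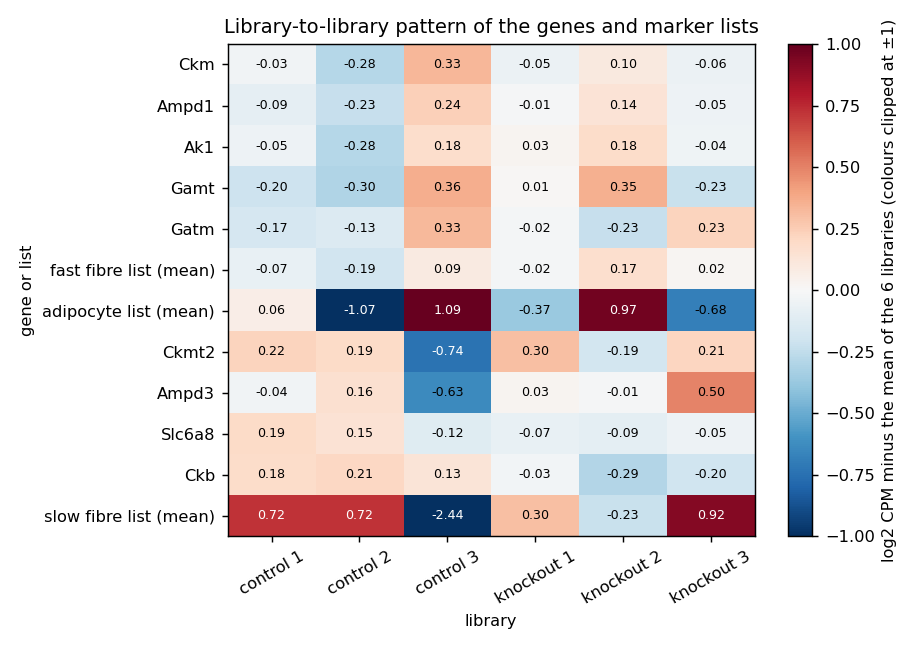
Log2 CPM minus the mean of the 6 libraries, for the 9 genes and for the mean of the fast fibre, slow fibre and adipocyte lists (rows) in each library (columns), with colours clipped at ±1 and the values printed. Control 3 stands at -2.44 in the slow list, -0.74 in Ckmt2 and -0.63 in Ampd3, and at 0.33 in Ckm and 1.09 in the adipocyte list.

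The other genes of the pathway gave no call either. Of the 37 measured genes 34 were tested, 17 with a positive and 17 with a negative log2 fold change, and none passed the threshold (edgeR). The median was 0.0031, close to the -0.0037 of all tested genes. At an unadjusted p under 0.05 there were 2 higher and 2 lower, beside 6.56% and 5.07% of all tested genes, which is near that background. The largest difference among these was in Gda, guanine deaminase, at 13.2, 12.5 and 12.5 CPM in the control libraries and at 33.1, 24.0 and 13.1 CPM in the knockout libraries (log2 fold change 0.88, SE 0.29, edgeR adjusted p = 0.363), so knockout 3 lay within the range of the controls. Slc25a5, an ADP/ATP carrier of the mitochondrial inner membrane, was at 0.32, while Slc25a4, the carrier that dominates in muscle (named after its values were seen), was at 0.11 with 3132 to 3615 CPM in controls and 3492 to 3738 CPM in knockouts.

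Among the nucleotide kinases, Guk1, guanylate kinase, was at -0.24 and Nme6 at -0.21 on the log2 scale, and Nme6 was lower in every knockout than in every control. Pnp, purine nucleoside phosphorylase, was at 0.43. The edgeR adjusted p of Guk1, Nme6 and Pnp lay between 0.410 and 0.450. Other pathway genes, named after their values were seen, separated in either direction. Ak3 (-0.12, edgeR adjusted p = 0.555) was lower in every knockout, as were 8.87% of all tested genes. Vdac2 (0.12, edgeR adjusted p = 0.601) was higher in every knockout. The share of all tested genes that separate upward is not given here, so this marks nothing particular to Vdac2. Adssl1, the muscle adenylosuccinate synthase that returns IMP towards AMP, was named after its values were seen. It stood at 1218, 1174 and 1325 CPM in controls and at 1001, 1182 and 1073 CPM in knockouts (log2 fold change -0.19, SE 0.099, edgeR adjusted p = 0.509), and its groups overlap.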

How the data were processed

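Poly(A)-selected RNA libraries of 6 muscles were compared, 3 control and 3 knockout, grouped by the sample titles. Whole-number read counts per gene were deposited by the authors without normalization, per the file headers. FPKM, scaled by the authors to gene length and library size, was used for levels between genes, and the authors' TPM was not used. The submitters' processing notes name StringTie 1.3.4d, Bowtie2 2.3.4.1, FastQC 0.11.7 and bcl2fastq 2.20.0 with mm10, without roles. The sources used here do not say which program counted or whether strand was used.

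Counts were tested with edgeR 4.0.16 in R 4.3.3 (filterByExpr with a minimum count of 10, TMM, quasi-likelihood, Benjamini-Hochberg adjustment over 14109 genes, threshold 0.05); 10423 genes were not tested. Standard errors and 95% intervals came from the quasi-likelihood F statistic, and a prior count of 2 was added for log2 CPM. The procedure was tested on simulated data. It called 13.4% of simulated 1.5-fold changes, 76.1% of 2-fold changes and 100% of 4-fold changes, and 11 of its 137 calls were false. A gene that did not pass is therefore not shown to be unchanged. Within groups, libraries differed beyond sampling noise (lowest chi-square divided by degrees of freedom 33.6). Each was counted as a sample, following the titles, and that spread alone does not show that the samples are independent. Alternatives were other scalings, no filter, DESeq2 1.42.0, limma 3.58.1 (voom, and log2 FPKM plus 1 or 0.1), a replicate block and leaving out libraries. DESeq2 gave 280 genes no adjusted p.

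The 9 genes and the lists were chosen with earlier results of these data known. Genes named are the 9, Usp21, the 6 pathway genes with the smallest p, 3 nearest genes to Ckb and Ampd3 (mean of at least 10 CPM), and the 2 most abundant genes of each fibre, denervation or marker list. Further genes of the pathway and the lists are marked where they appear as named after their values were seen. The lists of endothelial cells (Cdh5 at -0.14, Pecam1 at 0.095), macrophages (Lyz2 at 0.12, Csf1r at -0.096) and fibroblasts (Dcn at 0.11, Col1a1 at 0.70) had 0 of 5, 0 of 6 and 0 of 5 genes past the threshold. Of the endothelial genes 1 was positive and 4 were negative. Of the macrophage genes 5 were positive and 1 was negative, and all 5 fibroblast genes were positive. Coordinates are those of RefSeq for GRCm38.p6. The values of 1 gene of the nerve list are not reported here.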

Additional observations from a re-analysis of the deposited data

How the results depend on the processing

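None of the 9 genes passed the threshold under any of the 15 alternatives. Ckb, Slc6a8 and Ampd3 kept their direction in all of them. Direction changed when single libraries were left out for Ckm (-0.17 to 0.15), Ckmt2 (-0.084 to 0.32), Gatm (-0.15 to 0.16), Gamt (-0.087 to 0.32), Ak1 (-0.018 to 0.22) and Ampd1 (-0.064 to 0.19). It also changed for Ampd1 with limma on log2 FPKM plus 1 or plus 0.1 (-0.018 in both), and for Ckm (0.096) and Gatm (0.26) with both control 3 and knockout 2 left out; the cause was not tested. Over all genes, 8 calls became 290 with DESeq2, 5 with limma-voom, 1 with each FPKM pseudocount, 1 without both libraries, and from 1 to 141 with single libraries removed, the highest without knockout 3. Usp21 lost its call with FPKM plus 1 (-1.15) or plus 0.1 (-1.34), without both libraries (-1.22) and without control 1, control 2, control 3 or knockout 2 (-1.40 to -1.22 over all 6). The median of the pathway genes was -0.047 with FPKM plus 1, where the median of all genes was also -0.047, -0.062 with FPKM plus 0.1, and -0.027 to 0.063 without single libraries.

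With the replicate number as a block, 0 genes were called in place of 8, and Usp21 was at -1.29 (edgeR adjusted p = 0.200). Same-numbered libraries did not deviate together (correlations of -0.0082, -0.19 and -0.098), so the numbers were not taken as pairs.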
